A study of Bubalus bubalis with 8 samples.

Results

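This account concerns 91 gene IDs of the water buffalo (Bubalus bubalis) that were abundant in the immature oocyte and low in every library from the mature oocyte to the 8-cell embryo. They were selected by their values in the deposited table of FPKM (fragment counts scaled to transcript length and library size). An ID was taken when it had at least 10 FPKM in the immature oocyte and when its log2(FPKM + 1) was at least 2 lower, about 4-fold, in each of the MII, 2-cell, 4-cell and 8-cell libraries. The choice was made among the 18220 IDs that begin with the prefix gene (numbered IDs), of which 6129 had 10 FPKM or more in the immature oocyte. The 91 are 1.48% of those 6129, and the whole table holds 28659 IDs. Values in the 16-cell, morula and blastocyst libraries played no part in the choice.

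The study followed oocytes and embryos of buffalo in vitro over 8 stages to see how maternal transcripts change. The oocytes were either at GV (immature, with an intact nucleus called the germinal vesicle) or at MII (mature, held at metaphase II), and were followed by embryos of 2, 4, 8 and 16 cells, morulae and blastocysts. All embryos came from parthenogenetic activation, in which an egg is made to divide without sperm, so none carried a paternal genome. There was 1 library per stage, and the sources used here do not give the oocytes or embryos per library, the animals or the culture conditions.

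No stage therefore has a replicate error, no p-value is given, and every difference below is a difference between single libraries. FPKM is relative to the rest of a library, so fewer copies per embryo cannot be told apart from more of other transcripts, and fewer cells of a kind from less RNA per cell. The library sums ran from 892286 to 2501133 FPKM, and the morula and blastocyst sums were the 2 highest. The table pairs no ID with a gene name or a sequence, and 0 of its IDs matched RefSeq's gene table for NDDB_SH_1, a buffalo assembly. The 39 marker symbols listed for oocyte, cumulus, blastocyst and blood cells matched 0 IDs, so the labelled stages could not be checked against markers. At most 2 IDs per direction are named, and other members are described by their rank in the GV library.

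As background, a growing mammalian oocyte transcribes and stores large amounts of mRNA and then falls nearly silent. Meiotic maturation, the passage from GV to MII, runs without new transcription. Over this period stored mRNAs are lengthened or shortened at their poly(A) tails, translated, kept or degraded in turn. The embryo depends on what is left until its own genome is switched on, which in cattle happens mainly around the 8-cell to 16-cell stage. A transcript can thus be lost from the maternal store and be made again later by the embryo.

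The GV values that selected the 91 IDs ran from 10.8 to 2499.8 FPKM, with a median of 217 FPKM, and 67 of the IDs had 100 FPKM or more. The median of all 6129 IDs at 10 FPKM or more was 46.3 FPKM. The IDs were thus mostly drawn from the abundant part of the oocyte transcriptome, with a median at percentile 94.6 of the numbered IDs of that library. The share of IDs that met the rule was 0.562% at 10 to 100 FPKM in GV, 2.85% at 100 to 300 FPKM and 4.86% at 300 FPKM or more.

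In the 4 libraries of the rule the MII median of the 91 IDs was 27.6 FPKM, the 2-cell median 26.1, the 4-cell median 13.2 and the 8-cell median 17.2. These low values follow from the choice and are given as a description. Over all 6129 IDs, the share at least 2 log2 units lower than GV was 6.92% for MII, 3.96% for 2-cell, 14.2% for 4-cell and 12.2% for 8-cell. Low did not mean absent. In the MII oocyte 65 of the 91 still had 10 FPKM or more and 14 had 100 FPKM or more, and 2 were under 1 FPKM. In the 4-cell embryo 51 had 10 FPKM or more, 5 had 100 FPKM or more and 4 were under 1 FPKM. No member was listed at 0 in any of the 4 libraries.

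The IDs were not flat over the 4 libraries. The 4-cell value was the lowest of the 4 for 50 IDs, the 8-cell value for 19, the MII value for 18 and the 2-cell value for 4. The MII value was the highest for 40 and the 2-cell value for 36. Between the 2-cell embryo and the MII oocyte there was no common direction, with 45 IDs higher and 46 lower at 2-cell. In the 4-cell embryo 80 of the 91 were lower than in the 2-cell embryo, with a median difference of -0.81 log2 units, against 55.4% lower and a median of -0.14 over the 6129 IDs. In the 8-cell embryo 62 of the 91 were higher than in the 4-cell embryo (68.1%), with a median difference of 0.23 log2 units, against 43.3% higher and a median of -0.08 over the 6129 IDs. The spread of a member over the 4 libraries ranged from 0.33 to 5.07 log2 units (median 1.34), and 28 IDs stayed within 1 log2 unit. All of these libraries entered the choice, which sets an upper bound to each value and can also affect the order below that bound. The 6129 IDs were not chosen in this way, so their shares are not a like baseline. These differences are given as a description.

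The bound separated IDs of nearly equal behaviour. The member nearest to it was 2.00 log2 units below GV in its highest library, and the nearest ID outside was at the same value to 2 decimals. Within 0.1 log2 units of the bound lay 18 members, of which 13 were back in all 3 later libraries and 3 in none. Outside it, 14 IDs lay as near, of which 10 were back in all 3 and 3 in none. Another 5 numbered IDs met the 4 differences but had less than 10 FPKM in GV, the highest of them 8.62 FPKM. The MII and 2-cell libraries did most to limit the set, which would hold 175 IDs without the MII library and 172 without the 2-cell library.

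Most of the 91 IDs were not lost for good. An ID is called back in a later library when its log2(FPKM + 1) there was less than 2 below GV, the complement of the size used for loss. By that measure the 16-cell library had 65 of the 91 back (71.4%), the morula library 68 (74.7%) and the blastocyst library 67 (73.6%). A lasting loss at maturation was seen in 15 of the 91 IDs (16.5%), those that were back in none of the 3 libraries. At least 1 later library had the ID back for 76, and all 3 had it back for 57.

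Return to this loose level was not a mark of the 91 IDs. Over all 6129 IDs at 10 FPKM or more in GV, the share less than 2 log2 units below GV was 64.9% at 16-cell, 64.7% at morula and 62.0% at blastocyst. All 3 libraries met this for 62.6% of the 91 and 48.7% of the 6129, and none did for 16.5% of the 91 and 21.9% of the 6129. The members' shares were thus above those of all IDs by between 6.57 percentage points (16-cell) and 14.0 (all 3 together). No test of that difference is available with 1 library per stage, and several choices turned it in at least part of these libraries. Without the 2-cell library the rule took 172 IDs, of which 59.3% were back at 16-cell, 59.9% at morula and 62.2% at blastocyst, with 26.2% never back. With a size of 1 log2 unit for loss and return, 46.2%, 57.6% and 57.4% of 571 IDs were back. The shares of the 6129 were then 46.9%, 50.5% and 47.1%, so the difference turned at 16-cell alone. With a size of 3 log2 units, 60%, 60% and 50% of 10 IDs were back and 30% never, against 80.3%, 75% and 75% back and 11.9% never of the 6129. With new-gene IDs added, 54.3%, 53.5% and 51.9% of 129 IDs were back and 37.2% never, against 58.2%, 56.8% and 54.4% back and 30.1% never over all IDs at that GV level. With no GV minimum, 71.9%, 72.9% and 72.9% of 96 IDs were back and 16.7% never, against 86.0%, 84.1% and 83.7% back and 8.50% never over all numbered IDs, which then include IDs whose GV value is too low to be 2 log2 units lower elsewhere.

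**Figure D1:**
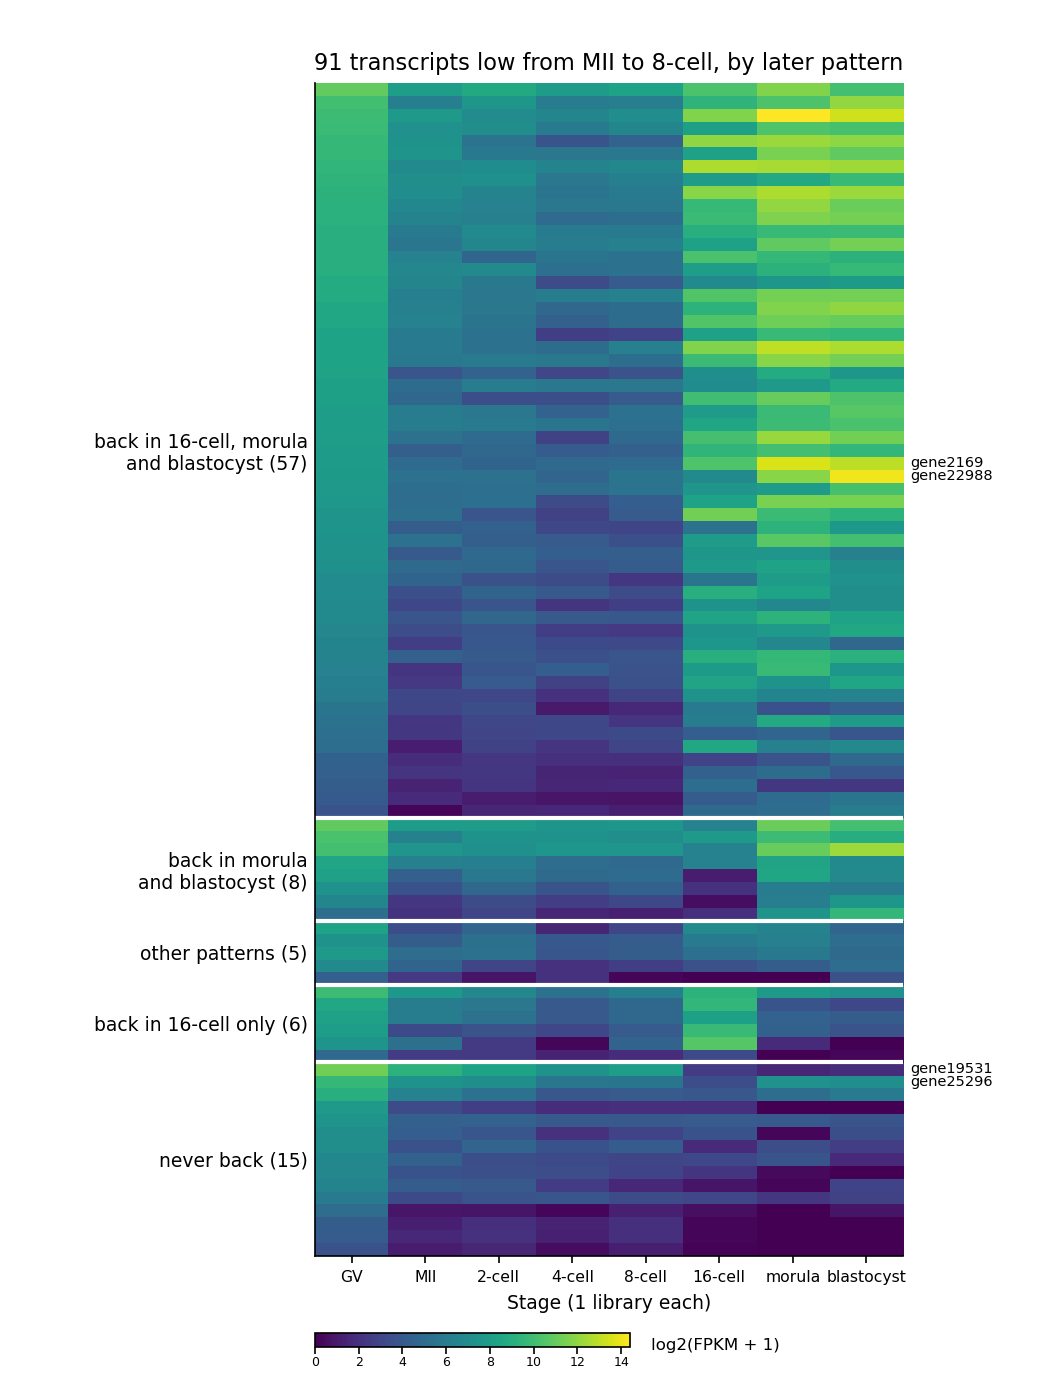
Heat map of log2(FPKM + 1) for the 91 gene IDs (rows) in the 8 libraries (columns, GV to blastocyst, 1 library each), grouped by the later libraries in which they were back and sorted within each group by the GV value. Colour shows the absolute level and not the difference from GV. The 57 IDs of the top block are less than 2 log2 units below their GV value in every column from 16-cell on. The 15 IDs of the bottom block are 2 or more log2 units below their GV value in every column from 16-cell on. The 4 IDs named in the text are marked at the right.

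The later levels themselves were high. The 16-cell median of the 91 IDs was 182 FPKM (quartiles 16.7 and 587), the morula median 238 (23.6 and 1354) and the blastocyst median 197 (23.0 and 1174). In these libraries 14, 25 and 27 IDs had 1000 FPKM or more (15.4%, 27.5% and 29.7%), against 6 in GV (6.59%). Over the 6129 IDs the shares were 3.62%, 6.28% and 5.42%, against 2.71% in GV. With libraries at equal sums the members at 1000 or more were 12, 16 and 17 (13.2%, 17.6% and 18.7%), against 4 in GV (4.40%). Over the 6129 IDs the shares on that scale were 3.02%, 3.08% and 2.86%, against 2.17% in GV. The quartiles were wide, but they do not compare an ID with its own oocyte level. Under 1 FPKM in these libraries were 7, 10 and 8 of the 91, against 329, 911 and 768 of the 6129. The 16-cell library listed 1 of the 91 at 0, the morula library 7 and the blastocyst library 6, and values listed at 0 were not counted over the 6129.

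Ranks give the same course without any scaling between libraries. The median percentile of the 91 among the 18220 numbered IDs was 94.6 at GV, 79.0 at MII, 77.5 at 2-cell, 69.9 at 4-cell, 74.2 at 8-cell, 94.7 at 16-cell and 93.7 at both morula and blastocyst. All 6129 IDs had a median percentile of 83.2 at GV, 82.8 at 8-cell, 78.5 at 16-cell and 77.0 at blastocyst. After the 8-cell stage the median rank of the 91 was thus higher and that of all 6129 IDs lower. The 91 IDs were chosen for high GV and low 8-cell values, so only the 16-cell, morula and blastocyst ranks are free of the choice.

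Together the 91 IDs held 2.81% of all FPKM at GV, 0.479% at MII, 0.502% at 2-cell, 0.283% at 4-cell and 0.368% at 8-cell. They held 4.26% at 16-cell, 5.01% at morula and 5.06% at blastocyst. A few IDs carried much of this, since the 5 highest members of each library made up 26.9% of the members' sum at GV, 41.6% at 16-cell, 43.7% at morula and 41.9% at blastocyst. Without each library's 5 highest, the share was 2.05% at GV, 2.49% at 16-cell, 2.82% at morula and 2.94% at blastocyst.

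**Figure D2:**
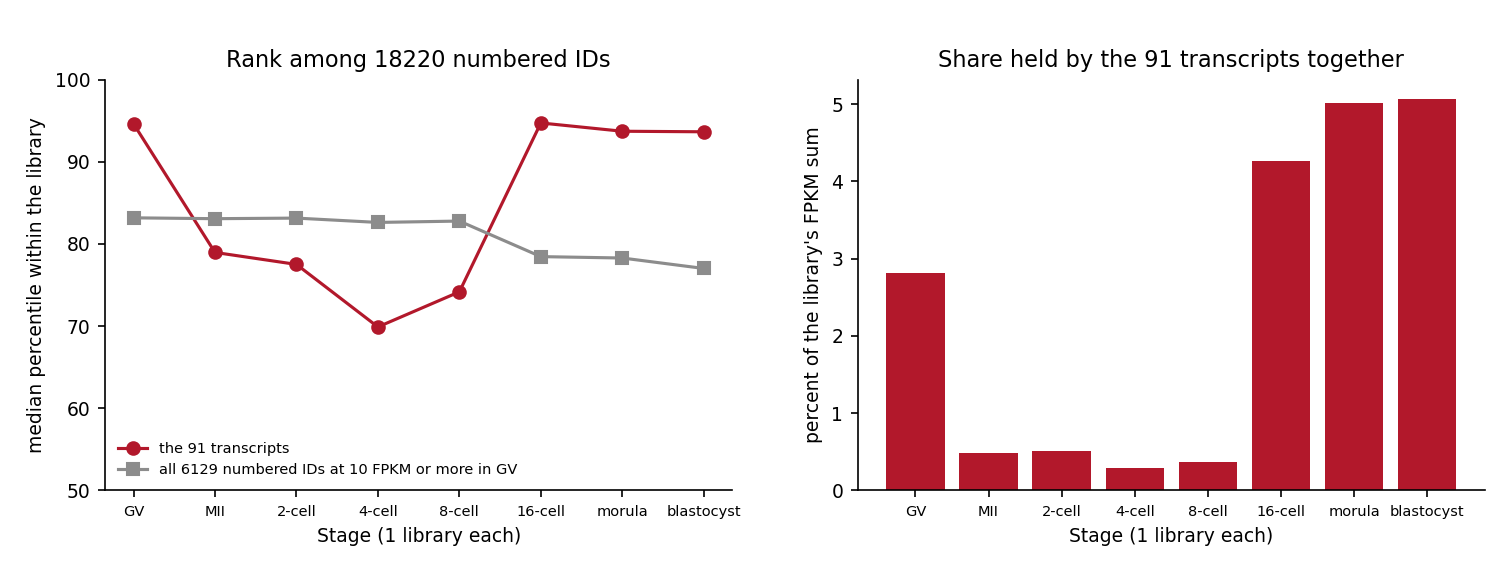
Left, median percentile within each library's 18220 numbered IDs (axis from 50 to 100) for the 91 IDs (circles) and for all 6129 IDs at 10 FPKM or more in GV (squares). Right, percent of each library's FPKM sum held by the 91 IDs; the members' median rank is 94.6 in GV, 69.9 in the 4-cell and 94.7 in the 16-cell library, and their share is 2.81%, 0.283% and 4.26% in the same libraries.

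Many IDs came back to more than the oocyte level. At 16-cell 41 of the 91 were at or above GV (45.1%), at morula 53 (58.2%) and at blastocyst 50 (54.9%). Over all 6129 IDs the shares were 29.5%, 35.7% and 31.6%. The members did not have the higher share in every library under every choice. With a size of 3 log2 units, 40%, 30% and 40% of 10 IDs were at or above GV. With no GV minimum, 45.8%, 55.2% and 53.1% of 96 IDs were, against 54.3%, 49.9% and 51.7% of all numbered IDs. Without the 2-cell library, 30.8%, 41.9% and 46.5% of 172 IDs were, so the excess over the 6129 was small at 16-cell. At or above GV in all 3 libraries were 31 of the 91 (34.1%), against 17.3% of the 6129. At least 2 log2 units above GV were 12 of the 91 at 16-cell (13.2%), 24 at morula (26.4%) and 27 at blastocyst (29.7%), against 7.03%, 12.5% and 10.3% of the 6129.

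Scaling moved these levels, and under both other scalings the 91 IDs still lay above all 6129 in their median difference from GV and in these shares. On the deposited scale the median difference of the 91 from GV was -0.22 log2 units at 16-cell, 0.37 at morula and 0.26 at blastocyst, and that of the 6129 was -1.18, -0.96 and -1.19. When every library was brought to an equal sum, as in TPM, the medians of the 91 were -0.23, -0.73 and -0.69, so the sign turned in the morula and the blastocyst. Those of the 6129 were then -1.19, -1.98 and -2.03. The IDs at or above GV were 41, 33 and 38 of the 91 on that scale, against 29.3%, 20.9% and 19.4% of the 6129. All 3 libraries were at or above GV for 25 of the 91 (27.5%, against 11.0%), and 12, 12 and 10 were at least 2 log2 units above GV (13.2%, 13.2% and 11.0%, against 6.89%, 5.27% and 4.81%). With median-of-ratios scaling the IDs at or above GV were 45, 55 and 51, against 32.3%, 38.2% and 35.7% of the 6129. At or above GV in all 3 were 36 (39.6%, against 20.1%). At least 2 log2 units above GV were 13, 26 and 30 (14.3%, 28.6% and 33.0%, against 8.27%, 13.8% and 12.4%).

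**Figure D3:**
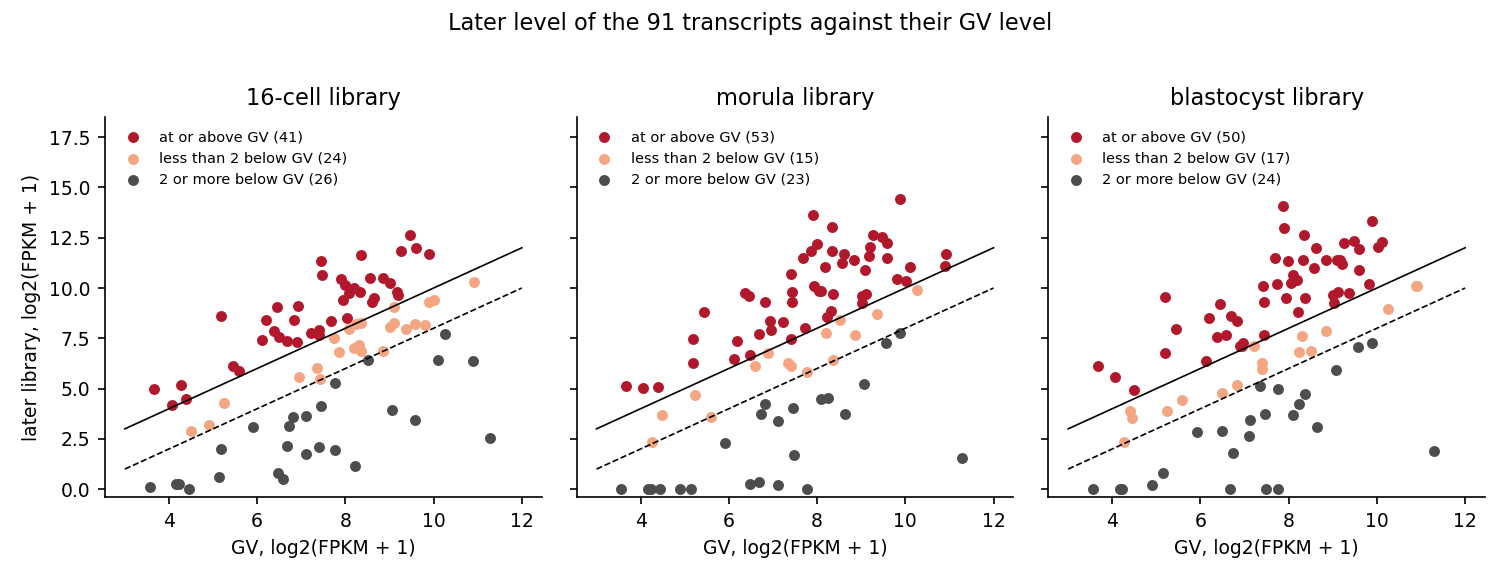
Each point is 1 of the 91 IDs, with log2(FPKM + 1) in the 16-cell, morula or blastocyst library (vertical axis) against GV (horizontal axis). The solid line marks equal values and the dashed line 2 log2 units below GV; 41, 53 and 50 IDs lie on or above the solid line, and 26, 23 and 24 lie on or below the dashed line.

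**Figure D4:**
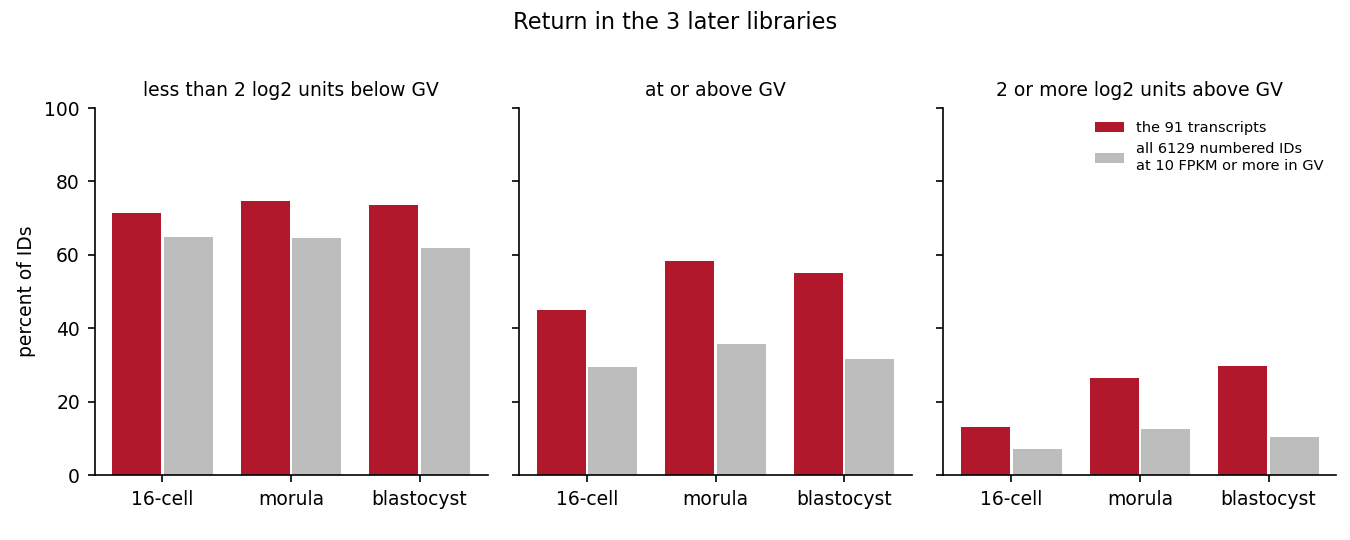
Percent of the 91 IDs (left bar of each pair) and of all 6129 numbered IDs at 10 FPKM or more in GV (right bar) that were less than 2 log2 units below GV, at or above GV, and 2 or more log2 units above GV in the 3 later libraries. In proportion the pairs are closer for the loose level of return (73.6% against 62.0% in the blastocyst) than for the highest level (29.7% against 10.3% in the blastocyst).

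The 57 IDs that were back in all 3 later libraries had a median of 244 FPKM at GV, 16.4 at 4-cell, 305 at 16-cell, 819 at morula and 729 at blastocyst. Their median ratio to the GV value was 1.54 at 16-cell, 2.88 at morula and 3.03 at blastocyst on the deposited scale, but 1.52, 1.32 and 1.55 with the libraries at equal sums. On the deposited scale the highest of the 3 later values was the 16-cell one for 11 of them, the morula one for 29 and the blastocyst one for 17. This was not counted with the libraries at equal sums or over the 6129, and it depends on the scale. For 60 of the 91 IDs even the lowest of the 3 later values was above the highest of the 4 values from MII to 8-cell (65.9%, against 14.5% of the 6129), although the rule held those 4 values low in the members alone.

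The ID with the greatest later value relative to GV was gene22988. Its FPKM was 232 at GV, 40.7 at MII, 40.3 at 2-cell, 24.5 at 4-cell, 45.2 at 8-cell, 113 at 16-cell, 3676 at morula and 17319 at blastocyst. It was still below its GV level in the 16-cell library and 6.22 log2 units above it in the blastocyst. The second was gene2169, with an FPKM of 237 at GV, 31.5 at MII, 24.3 at 2-cell, 29.6 at 4-cell, 31.6 at 8-cell, 1383 at 16-cell, 12461 at morula and 8073 at blastocyst. This ID was already 2.54 log2 units above GV in the 16-cell library, was 5.71 above it in the morula and was lower in the blastocyst than in the morula. The 2 IDs had nearly the same GV level (ranks 44 and 43 of the 91) and differed in when they were high.

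The IDs at the top in GV differed in how far they came back. The member of GV rank 2 had 1936 FPKM at GV, 263 at MII, 423 at 2-cell, 241 at 4-cell, 326 at 8-cell, 1266 at 16-cell, 3267 at morula and 1111 at blastocyst. It exceeded its GV value in the morula alone. The member of GV rank 7 had 948 FPKM at GV, 98.1 at 4-cell, 3296 at 16-cell, 21629 at morula and 10450.0 at blastocyst. That morula value was the highest of any member in any library.

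A smaller group of 8 IDs was back in the morula and the blastocyst but not in the 16-cell embryo. Their median was 331 FPKM at GV, 30.1 at 8-cell, 43.3 at 16-cell, 357 at morula and 350 at blastocyst. The members of GV ranks 3, 4 and 5 belonged here, so 3 of the 6 members above 1000 FPKM in GV were not back until the morula. The member of rank 3 had 1906 FPKM at GV, 187 at 8-cell, 83.3 at 16-cell, 2217 at morula and 1091 at blastocyst. The member of rank 79, at 35.4 FPKM in GV, had 3.05 at 16-cell, 174 at morula and 748 at blastocyst, 4.36 log2 units above GV. Back in both the morula and the blastocyst were 56.3% of all numbered IDs at 10 FPKM or more in GV. Back in all 3 later libraries were 48.7% of them. Among the members these shares were 71.4% and 62.6%. The gap between such shares, which is this course, was thus of similar size in the members and in all IDs.

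The opposite course was seen in 6 IDs that were back in the 16-cell embryo only. Their median was 286 FPKM at GV, 25.4 at 8-cell, 678 at 16-cell, 16.8 at morula and 9.71 at blastocyst. The sharpest was the member of GV rank 49, with 177 FPKM at GV, 39.2 at MII, 4.35 at 2-cell, 0.195 at 4-cell, 23.4 at 8-cell, 1575 at 16-cell, 2.25 at morula and a value listed at 0 at blastocyst. Its 16-cell value stood above all its other values. The member of rank 38 had 271 FPKM at GV, 16.3 at 8-cell, 847 at 16-cell, 21.1 at morula and 11.9 at blastocyst. Return in these IDs rests on the 16-cell library alone. Back in neither the morula nor the blastocyst were 29.7% of all numbered IDs at 10 FPKM or more in GV. Back in no later library were 21.9% of them. Among the members these shares were 23.1% and 16.5%. The gap between such shares, which is return at 16-cell only, was thus not larger in the members.

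Another 5 IDs had mixed courses. There were 2 back in the 16-cell embryo and the morula, 2 in the blastocyst alone and 1 in the morula alone. None of these 5 reached its GV value in a later library, and the nearest, back in the blastocyst alone, was 0.88 log2 units below GV there.

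The 15 IDs that were back in no later library had a median of 105 FPKM at GV, 11.4 at MII, 12.6 at 2-cell, 8.30 at 4-cell, 6.48 at 8-cell, 3.46 at 16-cell, 0.265 at morula and 2.73 at blastocyst. Their median GV level was below the 249 FPKM of the 76 IDs that were back somewhere. In the morula and the blastocyst 6 of them were under 1 FPKM in both libraries. For 7 of the 15, all 3 later values lay below the lowest of the 4 values from MII to 8-cell. For the other 8, the highest later value lay above that lowest early value.

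The most abundant of the 15, and of all 91 in GV, was gene19531. Its FPKM was 2499.8 at GV, 602 at MII, 328 at 2-cell, 162 at 4-cell, 271 at 8-cell, 4.83 at 16-cell, 1.93 at morula and 2.73 at blastocyst. It was thus still an abundant ID at the 8-cell stage, and its widest gap between neighbouring stages in log2 units was the one from the 8-cell to the 16-cell library. The second was gene25296, with 758 FPKM at GV, 162 at MII, 142 at 2-cell, 49.7 at 4-cell, 47.0 at 8-cell, 9.76 at 16-cell, 154 at morula and 135 at blastocyst. This ID was near the bound in the morula, 2.29 log2 units below GV, and its morula and blastocyst values were close to those of MII and the 2-cell embryo. The member of GV rank 50 was level after GV, with 174 FPKM at GV and then 12.4 to 22.4 FPKM in all 7 later libraries. The member of rank 46 had 217 FPKM at GV, 8.83 at MII and 2.88 at 16-cell, and was listed at 0 at morula and blastocyst.

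Members at 300 FPKM or more in GV had higher shares back than those at 10 to 100 FPKM. Among the 34 members at 300 FPKM or more in GV, 27 were back at 16-cell (79.4%), 28 at morula (82.4%) and 27 at blastocyst (79.4%), and 3 were never back. Among the 24 members at 10 to 100 FPKM, 15, 16 and 17 were back (62.5%, 66.7% and 70.8%), and 6 were never back. Between these levels, 23, 24 and 23 of the 33 members at 100 to 300 FPKM were back (69.7%, 72.7% and 69.7%), and 6 were never back. The blastocyst share thus did not rise in step with the GV level. At or above GV were 13, 23 and 21 of the 34 in the same libraries (38.2%, 67.6% and 61.8%), against 12, 11 and 11 of the 24 (50%, 45.8% and 45.8%), so the order turned at 16-cell for that level. Over all numbered IDs the order for being back was the other way. Of the 699 IDs whose GV value was 300 FPKM or more, 58.8%, 62.4% and 55.1% were back. Of the 4274 IDs at 10 to 100 FPKM, 66.6%, 65.2% and 64.1% were. For at or above GV, all numbered IDs had the same order as the members, with the same turn at 16-cell. Those shares were 27.2%, 40.2% and 35.2% of the 699, against 30.7%, 35.4% and 31.7% of the 4274. The share never back was 30.3% of the 699 and 19.8% of the 4274. These counts are small for the members, and the difference between the orders was not tested.

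The steps between the later libraries use none of the values that selected the IDs. From the 16-cell embryo to the morula, 24 of the 79 members with 10 FPKM or more in either library were at least 2 log2 units higher in the morula (30.4%) and 8 were lower (10.1%). Of the 7192 numbered IDs compared in the same way, 19.1% were higher and 15.4% lower. Rescaled to the same sum, 12 of 75 members were higher and 11 lower in the morula, against 9.10% and 29.2% of the 6087 IDs compared. From the morula to the blastocyst, 4 of 77 members were higher in the blastocyst (5.19%) and 1 was lower (1.30%), against 11.2% and 5.90% of 6750 IDs. The call of return was the same in the morula and the blastocyst for 86 of the 91 IDs. That agreement was not counted over all numbered IDs, so it cannot be read as a trait of the members. The step before these, from the 8-cell to the 16-cell embryo, starts from a value held low by the choice. At that step 55 of the 77 members compared were at least 2 log2 units higher in the 16-cell library and 5 were lower, against 23.6% and 24.1% of 7689 IDs.

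Lower shares back were seen in both sets described here that shared only part of the course, but not in every such set. One set of 333 numbered IDs was at least 2 log2 units below GV in MII but not in all of the 2-cell, 4-cell and 8-cell libraries. Its median was 76.7 FPKM at GV, 11.7 at MII, 37.1 at 2-cell, 28.4 at 4-cell, 21.8 at 16-cell, 37.3 at morula and 34.4 at blastocyst. Of these IDs 53.2%, 59.5% and 57.4% were back in the 16-cell, morula and blastocyst libraries, 39.9% were back in all 3 and 27.9% in none. A second set of 428 IDs was not that low in MII but was in the 4-cell and 8-cell embryo. Of that set 59.6%, 59.3% and 63.1% were back, 47.4% in all 3 and 28.0% in none. The 91 IDs, at 62.6% back in all 3 and 16.5% in none, had a higher share back and a lower share never back than both sets. With the MII library left out, the rule took 175 IDs, the 91 among them. Of these 175, 74.9%, 74.3% and 74.3% were back, 66.9% in all 3 and 17.1% in none. A higher return was thus not particular to IDs that were also low in MII. The 91 also had the higher GV level, with a median of 217 FPKM in the 91 against 76.7 and 71.6 FPKM in the other sets. The same libraries serve all of these sets, and the differences were not tested.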

How the data were processed

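The authors deposited 1 table of FPKM values with 28659 gene IDs and 8 library columns, and the unit was taken from the name of that table. For the aligner, build, annotation and filters, the sources used here give nothing. The protocol text of the samples names retina, so nothing on RNA isolation was taken from it. Each column was tied to its stage by the sample's description and title, and 0 columns were left over. Total depth is unknown, so no counting interval or floor is given and an exact 0 is reported as listed.

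Values were taken to log2(FPKM + 1), which understates folds of low IDs. Differences were judged by size alone (2 log2 units), with no test, since there is 1 library per stage. The members, sets and measures were chosen with earlier results of these data known. The IDs named were the 2 with the highest GV value among those never back and the 2 with the greatest later value relative to GV. Shares were set beside those of all numbered IDs at 10 FPKM or more in GV. For steps between neighbouring stages, IDs with 10 FPKM or more in either library were compared. Percentiles are ranks within a library over all numbered IDs.

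The rule was run on simulated data whose planted drops lay well beyond the bound. That run checked the calculation and not the calls near the bound. Alternatives were a pseudocount of 0.1, a GV minimum of 5, 30 or none, sizes of 1 and 3 log2 units, sum and median-of-ratios scaling, leaving libraries out and adding the other IDs. Python 3.11.15, numpy 2.4.6, pandas 2.3.3 and matplotlib 3.10.9 were used.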

Additional observations from a re-analysis of the deposited data

How the results depend on the processing

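No paired analysis was possible because each stage has 1 library and no result comes from a test. The counts at or above GV, the counts back in all 3 and the calls made without a later library were added after seeing the data. A size of 1 log2 unit gave 571 members, with 264, 329 and 328 back at 16-cell, morula and blastocyst, 219 back in all 3, 184 never back, and 193, 271 and 276 at or above GV. A size of 3 log2 units gave 10 members, with 6, 6 and 5 back, 4 back in all 3, 3 never back, and 4, 3 and 4 at or above GV. Leaving the MII library out of the rule gave 175 members, with 131, 130 and 130 back, 117 back in all 3, 30 never back, and 79, 107 and 104 at or above GV. Leaving out the 2-cell library gave 172 members, with 102, 103 and 107 back and 45 never back. At or above GV were 53, 72 and 80 of them (30.8%, 41.9% and 46.5%). Among all numbered IDs at 10 FPKM or more in GV these shares were 29.5%, 35.7% and 31.6%. Rescaling to an equal sum gave 59 members, with 40, 38 and 35 back, 31 back in all 3, and 21 and 25 at or above GV in the morula and the blastocyst. Adding new-gene IDs gave 48 never back of 129. Counts under the remaining alternatives stayed within 1.5 times, and without the 16-cell library 21 of the 91 were back in neither later stage. Another size, or fewer libraries in the rule, admits more or fewer IDs by construction, and for the other moves the cause was not tested. Depth is unknown, so its limit on low values cannot be given.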

Other observations

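The table also holds IDs that the authors named as new genes, and 38 of the 995 such IDs with 10 FPKM or more in GV met the same rule. Their median was 28.6 FPKM at GV, 2.68 at MII, 3.88 at 2-cell, 1.98 at 4-cell, 3.13 at 8-cell, 0.387 at 16-cell and 0 at morula and blastocyst. Of the 38, 5 were back at 16-cell, 1 at morula and 0 at blastocyst, and 33 were never back (86.8%). Over all 995 the shares back were 16.9%, 8.44% and 7.54%, and 80.6% were never back. A loss that lasted was thus the common course of new-gene IDs in general, and their share among the 38 was close to that of the 995. In the morula 36 of the 38 were under 1 FPKM, as were 847 of the 995.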
